A study of Mus musculus with 3 samples.

Results

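The olfactory receptor genes of mouse chromosome 9 were taken as the protein-coding genes of that chromosome whose symbol starts with Olfr, in the GENCODE M1 annotation of mouse genome build mm9. The rule used names and positions alone and found 129 of the 1265 protein-coding genes of chromosome 9. Another 984 Olfr genes lay on other chromosomes, and 1136 genes of chromosome 9 were not Olfr genes. FLI1, RUNX1 and input reads were counted within 1 kb of each transcription start site (TSS), a window of 2 kb, and over each gene record. A level is given in RPKM, reads per kb of sequence scaled to 1000000 reads used.

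Olfactory receptors are G-protein-coupled receptors that sense odorants at the surface of olfactory sensory neurons. Each such neuron is known to transcribe a single allele of a single receptor gene, while the rest of the family, which sits in tandem clusters, stays packed in heterochromatin. Most members are not transcribed in other tissues, blood cells among them. FLI1 is an ETS-family transcription factor and RUNX1 the DNA-binding subunit of core binding factor, and both are needed for platelet formation. The family serves here to describe the level of each library at genes of another tissue, beside the other genes of the same chromosome.

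The 3 libraries came from wild-type mature megakaryocytes (MK) of the CD1 strain, grown for 5 days from embryonic liver of day 15 per the labels, and a day earlier per the study's methods. One library was precipitated with an Abcam antibody to FLI1, one with an Abcam antibody to RUNX1, and one was input chromatin. Each was a pool of at least 3 preparations and at least 20 ng of DNA per the labels, so each antibody has 1 library, no replicate and no test between libraries. Labels and methods also differ on the library kit, the least amount of DNA and whether the input was sonicated or cut with micrococcal nuclease. The FLI1 library held 62946422 usable reads of 50 bases, the RUNX1 library 3973856 reads of 50 bases and the input 21745220 reads of 34 bases. The study lists more uniquely mapped reads than were deposited for both antibodies, and many times more for RUNX1, and the values below rest on the deposited reads alone. A window at the mean of the genome would hold 49.2 FLI1, 3.11 RUNX1 and 17.0 input reads. All intervals below are 95% intervals for counting error only and say nothing of the spread between preparations or between genes. Whether 2 of them overlap is therefore a statement about counting error alone. Most listed megakaryocyte markers carried FLI1 as labelled, and 8 of 10 were at 2-fold input or more, against 35.8% of all protein-coding genes. Itga2b, the integrin alphaIIb gene, had the highest FLI1 ratio of the 10, with 614 FLI1 reads against 24 input reads. Vwf, at 0.872 of input, and Ppbp, at 1.01, did not reach 2-fold. RUNX1 reached 2-fold input with at least 3 reads at 5 of the 10, against 27.9% of all protein-coding genes.

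The 129 genes formed 2 groups when neighbours less than 1 Mb apart were joined. Cluster 1 held 35 genes from Olfr24 to Olfr18 over 1.58 Mb (chr9:18559100-20140538), with 21 on the plus strand. Cluster 2 held 94 genes from Olfr151 to Olfr986 over 2.48 Mb (chr9:37518857-39995679), with 65 on the plus strand. Cluster 1 enclosed 1 other protein-coding gene, the zinc finger gene Zfp317, and cluster 2 enclosed 5. The gene records were short, with a median of 951 bp and a range of 918 to 23752 bp, and 106 of them were a single exon block. A 5′ UTR was annotated for 57 genes, so for the other 72 the recorded start is that of the coding sequence and the true promoter may lie outside the window. No 2 windows of the 129 overlapped.

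At the TSS, the Olfr genes held few reads in all 3 libraries. FLI1 counts ran from 18 to 75 with a median of 47, or 0.373 RPKM. RUNX1 counts ran from 0 to 10 with a median of 3, or 0.377 RPKM, and 14 genes had no RUNX1 read, a count whose interval reaches 3.69 reads. Input counts ran from 4 to 37 with a median of 14, or 0.322 RPKM. The other 1136 chromosome 9 genes had medians of 79 FLI1, 5 RUNX1 and 20 input reads. The Olfr median was therefore 0.595 of the other genes' median for FLI1, 0.600 for RUNX1 and 0.700 for input. The same ratios of mean levels were 0.406, 0.442 and 0.715. Without 12 genes at the chromosome's start, described below, they were 0.413, 0.553 and 0.751.

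**Figure D1:**
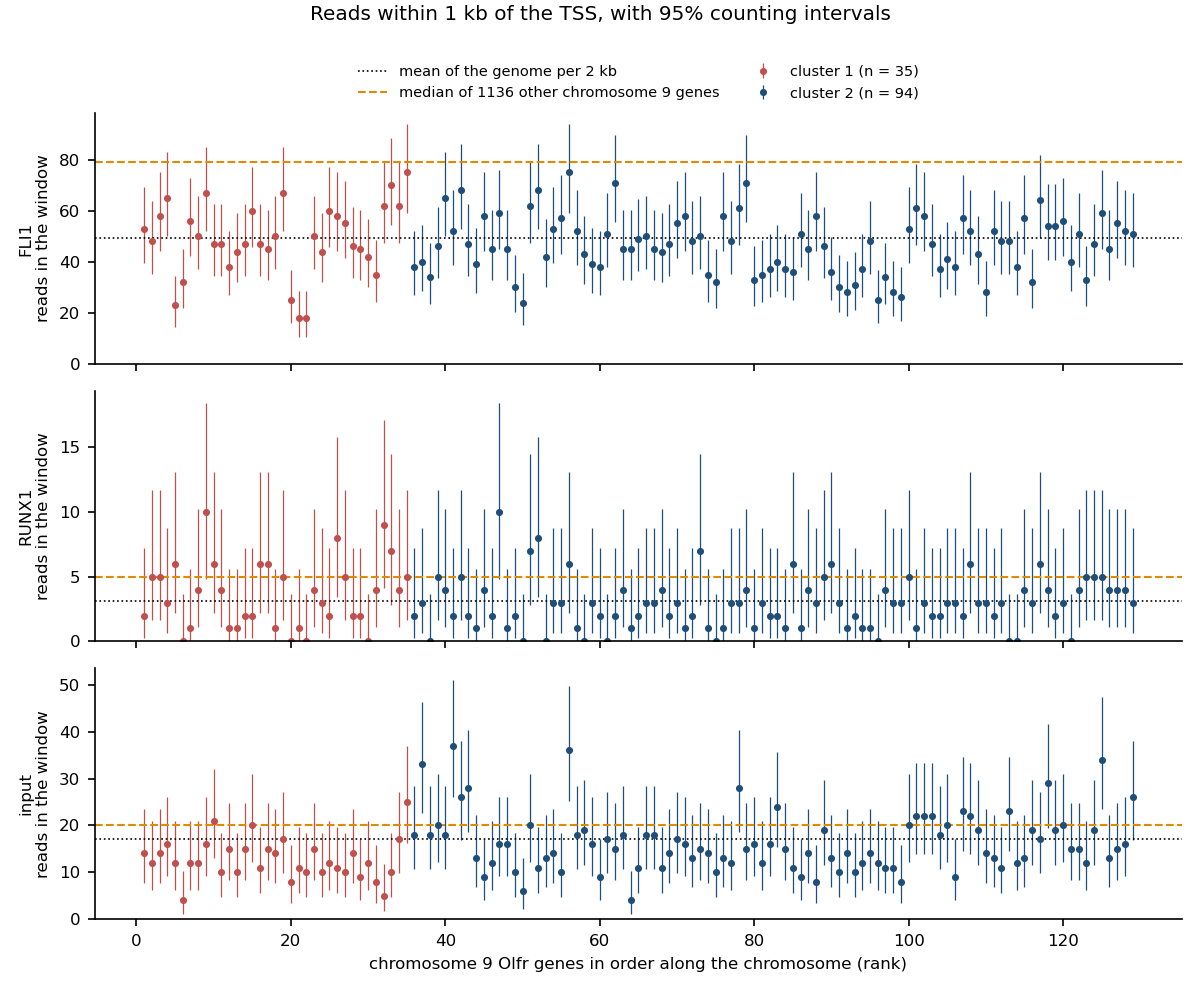
Reads within 1 kb of the TSS (y axes, 1 panel per library) for the 129 chromosome 9 Olfr genes in chromosome order (x axis, rank), with exact 95% Poisson intervals as bars. Dotted lines mark the genome mean per 2 kb and dashed lines the median of the other 1136 genes of the chromosome, and every FLI1 count, at most 75, lies under the dashed line at 79.

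By raw counts the groups overlapped least for FLI1, the library with the most reads. Overlap of counts depends on depth, and it was not compared at equal depth. Not 1 of the 129 FLI1 counts exceeded the median of the other genes, which was 78 once 12 genes in the first 100 kb of assembled chromosome 9 were left out. Of those 1124 other genes, 51.7% lay above the highest Olfr count. For RUNX1 10.2% of them did, and 17 Olfr genes exceeded the other genes' median of 5. For input 1.33% of them did, and 18 Olfr genes exceeded the median of 20. The 12 genes left out are a pile-up of reads at the chromosome's start, with a median of 128 RUNX1 reads.

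**Figure D2:**
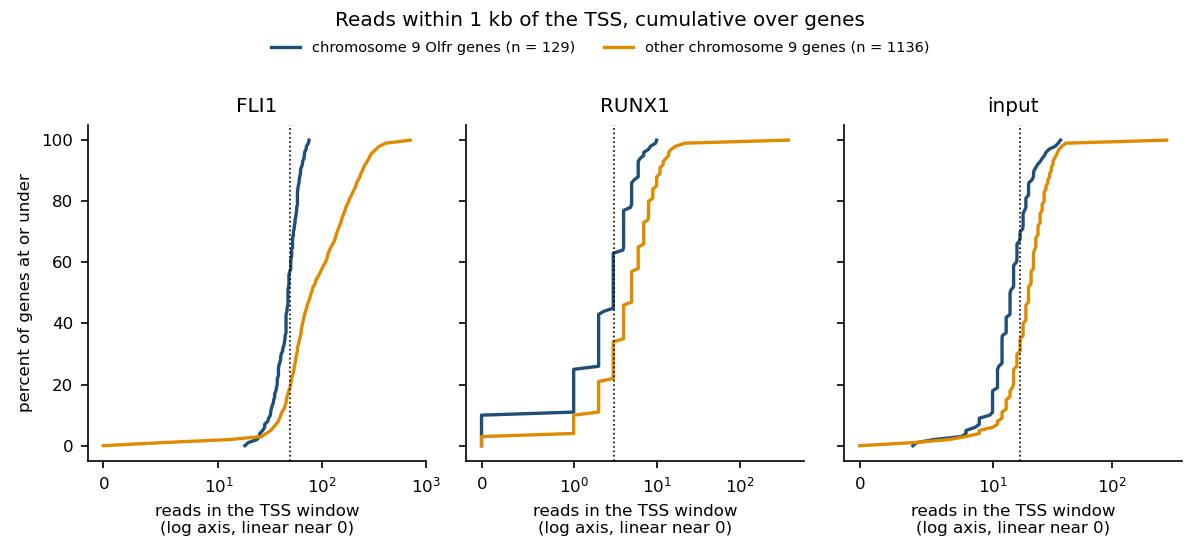
Percent of genes (y axis) at or under a given number of reads in the TSS window (x axis, log scale that is linear near 0) for 129 Olfr genes and 1136 other genes of chromosome 9. Dotted lines mark the genome mean, and the Olfr curve for FLI1 ends at 75 reads where the other genes' curve runs on to 712. The other genes' curve includes the 12 genes of the first 100 kb.

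Scaled to depth and summed over all 129 windows, FLI1 was 1.06 times input (1.01 to 1.12, from 6083 FLI1 and 1983 input reads) and RUNX1 1.09 times input (0.973 to 1.21, from 394 RUNX1 reads). The 1124 other genes stood at 1.85 for FLI1 (1.83 to 1.88) and 1.43 for RUNX1 (1.39 to 1.48). Over the whole window the intervals of the Olfr genes and the other genes did not overlap for either factor. The sides of the TSS differed. In the 1 kb before it, the Olfr FLI1 ratio was 1.32 (1.23 to 1.43) against 1.96 in the other genes (1.93 to 2.00), and the RUNX1 ratio was 1.48 (1.27 to 1.71) against 1.44 (1.38 to 1.50), so that the RUNX1 intervals overlapped there. In the 1 kb after it the Olfr ratios were 0.869 and 0.807, against 1.82 and 1.49.

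FLI1 reached 2-fold input at 7 of the 129 genes (5.43%), against 34.8% of all chromosome 9 protein-coding genes. The count depends on the window and the depth: with 500 bp on either side it was 17 (13.2%, against 42.0%), and after FLI1 reads were drawn down to as many as RUNX1 had, it was 19 (14.7%, against 35.7%). The FLI1 counts of the 7 genes, 32 to 70, lay within the range of the other members. All 7 had input at or under the Olfr median, at 4 to 11 reads. Olfr872 (ENSMUSG00000066897.4, chr9:20041606-20065357, plus strand) had the highest ratio. It held 62 FLI1 (47.5 to 79.5), 9 RUNX1 and 5 input reads (1.62 to 11.7), a FLI1 ratio of 4.28 with an interval of 1.74 to 13.7. Olfr905 held 45 FLI1, 1 RUNX1 and 4 input reads, a FLI1 ratio of 3.89 (1.42 to 14.9). Olfr834 held 32 FLI1, 0 RUNX1 and 4 input reads, a ratio of 2.76 (0.980 to 10.8). These 3 had the fewest input reads of the family, and Olfr834 and Olfr905 had fewer FLI1 reads than the family's median of 47.

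The other 4 genes at 2-fold had lower ratios and more input reads. Olfr937 held 58 FLI1, 3 RUNX1 and 8 input reads, and Olfr39 held 70, 7 and 10. Olfr884 held 58, 4 and 9, and Olfr893 held 68, 8 and 11 reads. Their FLI1 ratios were 2.50, 2.42, 2.23 and 2.14. No FLI1 interval of any of the 129 genes lay wholly above 2, and for 118 genes the interval held 1.

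The genes with the most FLI1 reads were other ones. Olfr18, at the end of cluster 1, and Olfr25 in cluster 2 both held 75 FLI1 reads, but input was also high, at 25 and 36 reads. Olfr902 followed with 71 FLI1, 2 RUNX1 and 15 input reads. The fewest FLI1 reads, 18, were found at Olfr58 and Olfr859, with 11 and 10 input reads, and Olfr832 had 23 with 12. Olfr58 and Olfr859 are neighbours in cluster 1.

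At the low end, FLI1 was at or under 0.5 of input at 2 Olfr genes (1.55%), against 4.11% of all chromosome 9 genes. Olfr874 held 40 FLI1, 3 RUNX1 and 33 input reads, a ratio of 0.419 (0.257 to 0.685). Olfr145 held 52 FLI1, 2 RUNX1 and 37 input reads, the most input of the family, and a ratio of 0.486 (0.312 to 0.761). Olfr58 came next, at 0.565. Olfr982 had nearly as much input as Olfr145, with 34 reads, beside 59 FLI1 and 5 RUNX1 reads. Both Olfr874 and Olfr145 had FLI1 counts near the family's median, and both had input above the median of 14.

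The 250 bases before the TSS are shown, in the gene's direction, for the genes at these extremes, with letters of an ETS (CAGGAAG or CCGGAAG), RUNX (TGTGGT or TGCGGT), homeodomain (TAATTA) or olfactory O/E (CCCNNGGG) motif on either strand in capitals. Olfr872 has the highest FLI1 ratio, Olfr39 is another gene at 2-fold, Olfr18 has the most FLI1 reads and Olfr145 the most input reads.
Olfr872, chr9:20041356-20041605, plus strand: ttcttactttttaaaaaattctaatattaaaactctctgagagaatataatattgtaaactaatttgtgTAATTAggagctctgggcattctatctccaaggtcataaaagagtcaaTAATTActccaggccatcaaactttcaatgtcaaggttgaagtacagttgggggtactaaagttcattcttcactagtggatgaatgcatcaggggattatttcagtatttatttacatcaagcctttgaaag
Olfr39, chr9:20086545-20086794, plus strand: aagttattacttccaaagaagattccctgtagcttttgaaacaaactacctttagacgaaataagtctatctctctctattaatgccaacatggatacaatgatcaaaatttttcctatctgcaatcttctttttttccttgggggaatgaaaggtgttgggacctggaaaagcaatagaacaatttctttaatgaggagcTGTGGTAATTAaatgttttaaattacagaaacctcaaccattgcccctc
Olfr18, chr9:20140539-20140788, minus strand: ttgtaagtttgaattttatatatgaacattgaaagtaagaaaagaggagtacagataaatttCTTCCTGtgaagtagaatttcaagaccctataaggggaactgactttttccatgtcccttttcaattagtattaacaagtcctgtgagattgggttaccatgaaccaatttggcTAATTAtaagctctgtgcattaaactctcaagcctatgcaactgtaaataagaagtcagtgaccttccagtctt
Olfr145, chr9:37704660-37704909, plus strand: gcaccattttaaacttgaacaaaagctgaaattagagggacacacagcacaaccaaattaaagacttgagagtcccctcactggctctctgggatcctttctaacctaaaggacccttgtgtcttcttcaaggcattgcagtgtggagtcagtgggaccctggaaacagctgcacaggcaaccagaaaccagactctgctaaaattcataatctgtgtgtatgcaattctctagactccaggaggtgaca
Only Olfr18 among these 4 carries ETS letters, read here as CTTCCTG on the other strand. Olfr872 has a pair of TAATTA words and no ETS or RUNX letters. In Olfr39 TGTGGT and TAATTA overlap by 1 base. Olfr145 has none of the words, and 45.6% of its bases are G or C, against 32.4% in Olfr872.

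RUNX1 reached 2-fold input with at least 3 reads at 20 of the 129 genes (15.5%), against 28.4% of all chromosome 9 genes. With 2 kb on either side the order turned, at 26 Olfr genes (20.2%) against 17.5% of all chromosome 9 genes. With 1 kb on either side, the RUNX1 counts of the 20 genes ran from 3 to 10 and their input counts from 5 to 16, with input at or under the family's median in 16 of them. Olfr843 and Olfr887 both held 10 RUNX1 and 16 input reads, beside 67 and 59 FLI1 reads, a RUNX1 ratio of 3.42. Olfr872, with 9 RUNX1 reads, had the highest ratio, 9.85 with an interval of 2.96 to 37.4. It was also the one gene whose RUNX1 interval lay wholly above 2, but with 500 bp on either side it held no RUNX1 read and its ratio was 0. Of the 7 genes with FLI1 at 2-fold, 5 were also among these 20, but both ratios share the same input count. At the other end, 36 genes (27.9%) had RUNX1 at or under 0.5 of input, against 16.0% of all chromosome 9 genes. With a median of 3 reads a gene, this depth cannot rank single genes.

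No Olfr window held a stretch of FLI1 reads at 5 times the genome mean. The fullest stretch of 300 bp in each window held 5 to 19 FLI1 reads with a median of 13, where the genome mean is 7.38. A stretch at 5 times that mean needs 37 reads, and 0 of 129 Olfr windows had one, against 34.8% of all chromosome 9 genes. In the other 1136 genes the fullest stretch had a median of 24 reads. RUNX1's fullest stretch held 0 to 6 reads in the Olfr windows with a median of 2, against a median of 3 in the other genes. At this depth 5 times the RUNX1 mean is only 3 reads, so the rule was not applied to RUNX1.

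Averaged by distance from the TSS, the FLI1 level of the Olfr genes had no peak like that of the other genes. Its 100 bp bins lay between 0.300 and 0.462 RPKM. It was 0.376 RPKM within 500 bp of the TSS and 0.344 at 3 to 5 kb, a ratio of 1.09, where the 1124 other genes had 2.51. For RUNX1 the ratio was 0.944 in the Olfr genes and 1.76 in the others. Input behaved differently. It was 0.368 within 500 bp of the Olfr TSS and 0.274 at 3 to 5 kb, a ratio of 1.34, against 0.932 in the other genes. The highest 100 bp bin of the Olfr input profile, at 0.585, was centred 450 bp after the TSS, inside the short coding exon.

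**Figure D3:**
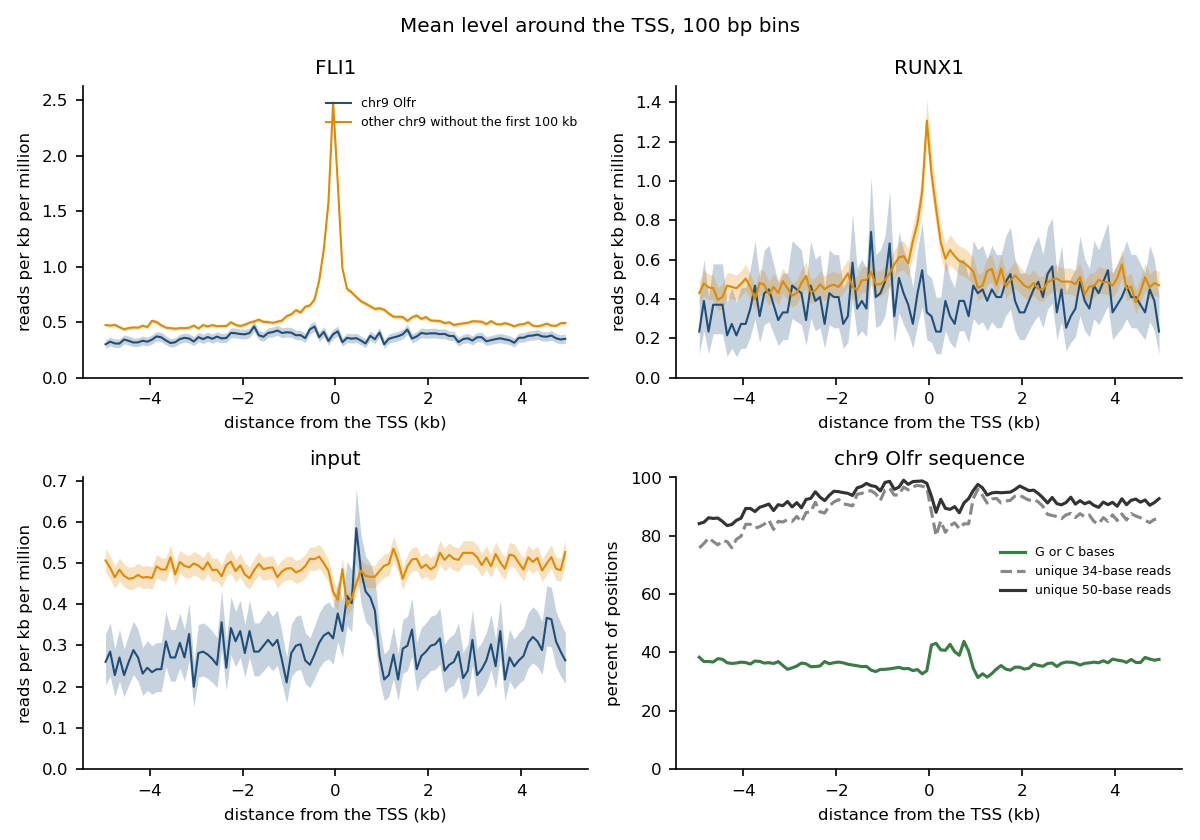
Mean level (y axes, RPKM) in 100 bp bins within 5 kb of the TSS (x axes, kb, negative before the TSS) for FLI1, RUNX1 and input, with shaded 95% Poisson intervals, and the share of G or C bases and of unique positions at the Olfr genes. The other genes' FLI1 line rises to 2.48 at the TSS while the Olfr line stays at or under 0.462, and the Olfr input line peaks at 0.585 after the TSS.

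The input step was seen gene by gene. In the 900 bp after the TSS input had 1.43 times the reads of the 900 bp before it (1.30 to 1.57, 1076 against 751 reads), and 85 genes had more after the TSS, 35 more before it and 9 the same. FLI1 went the other way, at 0.901 (0.854 to 0.951), with 55 genes higher after and 72 higher before. RUNX1 stood at 0.734 (0.588 to 0.913, 146 against 199 reads). The share of G or C bases moved with it, at 34.1% before and 41.5% after the TSS. The share of positions with a unique 50-base read fell from 98.0% to 90.5%, and with a unique 34-base read from 96.1% to 83.7%. Per the methods the input was cut with micrococcal nuclease and the FLI1 and RUNX1 chromatin was sonicated, while the labels differ on the input. The part of base composition, uniqueness or cutting in the step, or in the ratios over input on either side of the TSS, was not tested.

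Counts varied among the Olfr genes by more than counting error. The variance over the mean was 3.14 for FLI1, 1.55 for RUNX1 and 2.36 for input, where pure counting gives a value near 1. When each gene's expected count was set by its number of unique positions, these became 2.31, 1.44 and 2.18. Intervals of sums over genes leave this extra spread out and are narrower than it would make them. The authors kept uniquely mapped reads, a filter that drops reads of near-identical copies, and 28 genes had under 90% unique 50-base positions. Those 28 had a median of 36 FLI1 reads and the other 101 a median of 50. Olfr859, one of the 2 genes with 18 FLI1 reads, had 67.8% unique positions, the lowest of the family, and no FLI1 read at all over its 930 bp record. Olfr58, with the same count, had 94.0%.

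Across the 129 genes FLI1 reads and unique 50-base positions had a Pearson r of 0.63 and a Spearman rho of 0.62. FLI1 reads had an r of 0.06 with the share of G or C bases. Input was the reverse, with an r of 0.49 for G or C bases and 0.24 for unique 50-base positions. FLI1 and input reads had an r of 0.36, and FLI1 and RUNX1 0.45. These genes share the 3 libraries and the sequence features named, and the values are descriptions across genes, which are not replicates.

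**Figure D4:**
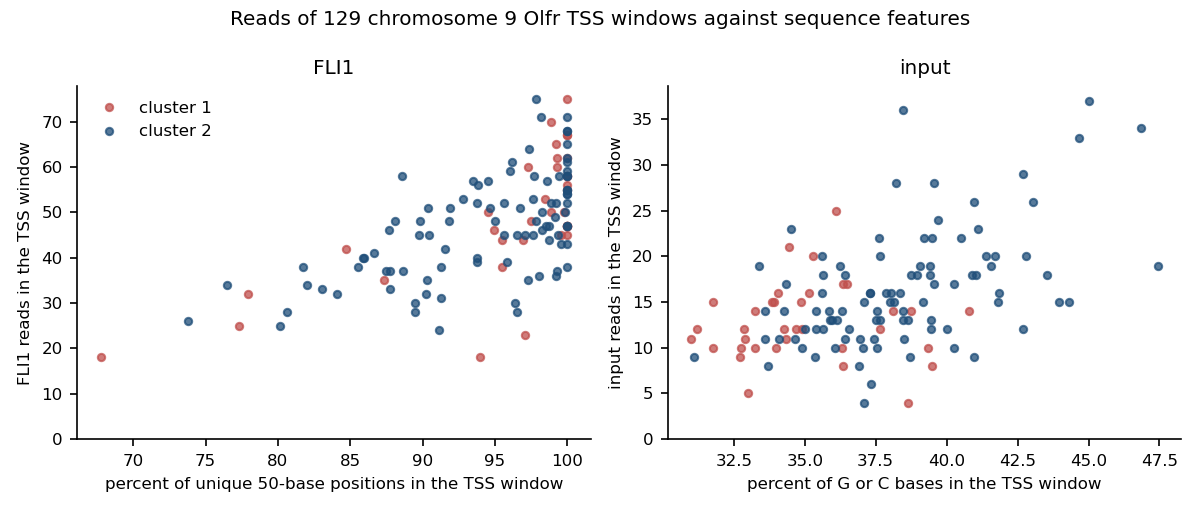
FLI1 reads against the percent of unique 50-base positions (left) and input reads against the percent of G or C bases (right) in the TSS window, 1 point per chromosome 9 Olfr gene, coloured by cluster. The FLI1 counts under 30 lie at both low and high uniqueness, from 67.8% up, and input counts above 30 lie at 38.5% G or C and above.

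Base composition also set the Olfr genes apart from the rest of the chromosome. Their windows were 31.0% to 47.5% G or C with a median of 37.4%, and the other 1136 genes had a median of 51.9%. Only 275 of the 1124 other genes were no richer in G or C than the richest Olfr window. Those 275 had medians of 58 FLI1, 3 RUNX1 and 18 input reads, beside 47, 3 and 14 in the Olfr genes. Their summed FLI1 was 1.38 times input (1.34 to 1.42) and 17.5% of them reached 2-fold, against 1.06 (1.01 to 1.12) and 5.43% in the Olfr genes. Their RUNX1 was 1.17 times input (1.10 to 1.25) with 16.0% at 2-fold, against 1.09 (0.973 to 1.21) and 15.5%, so for RUNX1 the intervals overlapped. In the 1 kb before the TSS their FLI1 ratio was 1.37 (1.31 to 1.43) and their RUNX1 ratio 1.19 (1.08 to 1.30), and both intervals overlapped those of the Olfr genes. In the 1 kb after it neither did, with FLI1 at 1.43 (1.37 to 1.49) against 0.869 (0.812 to 0.931) and RUNX1 at 1.20 (1.09 to 1.31) against 0.807 (0.683 to 0.949). Under 38% G or C the FLI1 medians were 0.373 RPKM in 74 Olfr genes and 0.469 in 22 others, and 5 (6.76%) and 4 (18.2%) reached 2-fold. Input medians in that band were 0.287 and 0.345 RPKM, and the median gene's FLI1 over input was 1.17 in the Olfr genes and 1.18 in the others, so the medians were close in that band. In the other bands that hold Olfr genes they were further apart: 0.977 in 44 Olfr genes and 1.06 in 61 others at 38% to 42% G or C, 0.678 in 9 and 0.970 in 116 at 42% to 46%, and 0.727 in 2 and 1.31 in 209 at 46% to 50%. The part of base composition in the difference was not tested beyond these values.

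The clusters differed in their ratios over input. In cluster 1 FLI1 was 1.32 times input (1.19 to 1.47) and RUNX1 1.54 times (1.26 to 1.88). In cluster 2 the ratios were 0.984 (0.928 to 1.04) and 0.955 (0.835 to 1.09). The FLI1 medians were 48 reads in cluster 1 and 47 in cluster 2, RUNX1 4 and 3, and input 12 and 15, so for FLI1 it was the input count that differed. Both ratios of a cluster share the same input reads. The median window held 34.5% G or C in cluster 1 and 38.1% in cluster 2, and the part of that was not tested. FLI1 reached 2-fold at 3 of 35 (8.57%) and 4 of 94 genes (4.26%), both under the 34.8% of all chromosome 9 genes. RUNX1 did at 11 of 35 (31.4%) and 9 of 94 (9.57%), so only cluster 2 lay under the 28.4% of the chromosome. Split at the median of G or C over all 129 genes, FLI1 was 1.21 times input in the poorer 65 genes (1.12 to 1.31) and 0.946 in the richer 64 (0.883 to 1.01).

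The outer genes of the clusters differed among themselves. Olfr18, the last gene of cluster 1, shared the family's highest FLI1 count, as given above. Olfr24, the first gene of cluster 1, held 53 FLI1, 2 RUNX1 and 14 input reads. Olfr151, the first gene of cluster 2, held 38, 2 and 18, and Olfr986, the last, 51, 3 and 26, where the input lay well above the family's median of 14. Just outside cluster 2 the promoter of the zinc finger gene Zfp202 held 140 FLI1, 7 RUNX1 and 27 input reads. Beyond cluster 1 the Zfp560 promoter held 278 FLI1, 4 RUNX1 and 15 input reads. The FLI1 counts of both neighbours lay above the 75 reads of the highest Olfr window.

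Over the gene records the Olfr genes were again lower than the other genes in all 3 libraries. The median level of the Olfr genes was 0.365 RPKM for FLI1, 0.265 for RUNX1 and 0.387 for input, against 0.468, 0.460 and 0.514 in the other 1136 genes. The ratios of these medians were 0.781, 0.576 and 0.753, and those of the means 0.674, 0.505 and 0.783, so the order of FLI1 and input depends on the summary. Without the 12 genes of the first 100 kb the ratios of the means were 0.705, 0.723 and 0.822. The low RUNX1 ratio of means thus rested on those genes, while the ratio of medians without them was 0.577. Since records are short, the median gene held 24 FLI1, 1 RUNX1 and 9 input reads, and 46 genes held no RUNX1 read. Genes with 2 or more exon blocks, 23 in all, had a TSS ratio of 1.20 for FLI1 (1.06 to 1.36), and the 106 with a single block 1.03 (0.978 to 1.09). Genes with an annotated 5′ UTR stood at 1.03 (0.959 to 1.11) and those without at 1.08 (1.01 to 1.16), so these intervals overlapped.

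ETS letters were sparse near these TSSs. CCGGAAG, on either strand and within the 300 bp from 250 bp before to 50 bp after the TSS, was found at 0 of 129 Olfr genes, 14.0% of 1124 other chromosome 9 genes and 10.8% of all 22367 protein-coding genes. CAGGAAG was found at 5.43% of the Olfr genes and 12.1% of all genes. The RUNX word TGTGGT stood at 17.1% and 15.3%, and TGCGGT, which holds a CpG, at 0% and 7.08%. For TGTGGT the Olfr share was 10.5% in the 57 genes with an annotated 5′ UTR and 22.2% in the 72 without, so it lay under that of all genes in the first and above it in the second. The homeodomain word TAATTA was found at 22.5% of the Olfr genes and 4.83% of all, and the O/E word CCCNNGGG at 1.55% and 15.1%. With and without an annotated 5′ UTR the Olfr shares were 24.6% and 20.8% for TAATTA, and 3.51% and 0% for CCCNNGGG. Where no 5′ UTR is annotated, the true promoter may lie outside these 300 bp. CCGGAAG holds a CpG too, and Olfr promoters had a median of 1 CpG where all promoters had 11. The part of base composition in the shares of these words was not tested. Homeodomain and O/E proteins are known regulators of olfactory receptor genes, and a word match is no site.

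In the full windows CCGGAAG occurred at 2 places, both in a coding exon, and they are shown because they are the family's only matches to this ETS word, with the word in capitals (or its reverse complement) and 50 bases on both sides, in the gene's direction.
Olfr148, chr9:39421682-39421788, plus strand: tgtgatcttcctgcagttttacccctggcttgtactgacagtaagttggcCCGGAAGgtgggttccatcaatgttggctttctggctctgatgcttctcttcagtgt
Olfr866, chr9:19831812-19831918, minus strand: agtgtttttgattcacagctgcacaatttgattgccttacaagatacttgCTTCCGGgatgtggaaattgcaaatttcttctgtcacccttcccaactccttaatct
The first lies 606 bp and the second 614 bp after the TSS. Within 100 bp of them FLI1 had 5 and 4 reads, RUNX1 2 and 0 and input 1 and 2. Summed over both places, FLI1 reads were 0.943 of the rate of their own windows (0.431 to 1.79). At 398 matches of the same word in windows of the other genes the mean was 63.3 FLI1 reads, 3.23 times the rate of their windows (3.19 to 3.27). At the 219 TGTGGT words of the Olfr windows RUNX1 was 0.974 of the window rate (0.756 to 1.23), and at 1432 such words of the other genes it was 1.04 (0.965 to 1.11), with 1 inside both intervals. At the other RUNX word, TGCGGT, RUNX1 was 1.43 of the window rate (1.30 to 1.57) at 488 places of the other genes and 0.796 (0.0964 to 2.88) at 9 of the Olfr windows, where the 2 RUNX1 reads cannot show a difference. In the other genes RUNX1 was also 1.72 (1.57 to 1.87) at the ETS word CCGGAAG, and FLI1 was 1.32 (1.29 to 1.35) at TGCGGT. An excess over the window rate was thus not limited to a factor's own word. At 65 CAGGAAG words of the Olfr windows FLI1 was 1.06 (0.942 to 1.18), against 1.52 (1.50 to 1.55) at 849 of the other genes.

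The clusters as a whole, genes and the sequence between them, also held few reads. In bins of 10 kb the median level within both clusters was 0.329 RPKM for FLI1, 0.327 for RUNX1 and 0.262 for input, against 0.418, 0.403 and 0.451 over the rest of chromosome 9. The FLI1 and RUNX1 medians thus lay above that of input in the clusters and under it elsewhere. In the TSS windows the FLI1 and RUNX1 medians lay above that of input in both groups of genes, and the ratios over input were higher in the other genes. The median bin was 37.8% G or C in the clusters and 42.6% elsewhere, unique 34-base positions were 83.9% and 94.4%, and unique 50-base positions, the read length of FLI1 and RUNX1, 92.1% and 97.2%. Stretches of 300 bp with at least 37 FLI1 reads occurred 3 times in 13526 within the clusters, or 0.739 per Mb, and 16.1 per Mb elsewhere. None of the 3 overlapped an Olfr record, and all were intergenic in the annotation.

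The fullest and the cluster 2 stretch are shown, plus strand, as the FLI1-rich places inside the clusters, with CAGGAAG letters on either strand in capitals.
Cluster 1, chr9:19426501-19426800: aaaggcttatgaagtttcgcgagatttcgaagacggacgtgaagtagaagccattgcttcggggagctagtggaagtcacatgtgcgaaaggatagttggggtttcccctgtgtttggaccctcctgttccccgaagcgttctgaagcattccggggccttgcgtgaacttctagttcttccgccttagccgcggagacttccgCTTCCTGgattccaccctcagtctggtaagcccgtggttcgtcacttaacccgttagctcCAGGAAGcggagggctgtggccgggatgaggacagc
Cluster 2, chr9:39384601-39384900: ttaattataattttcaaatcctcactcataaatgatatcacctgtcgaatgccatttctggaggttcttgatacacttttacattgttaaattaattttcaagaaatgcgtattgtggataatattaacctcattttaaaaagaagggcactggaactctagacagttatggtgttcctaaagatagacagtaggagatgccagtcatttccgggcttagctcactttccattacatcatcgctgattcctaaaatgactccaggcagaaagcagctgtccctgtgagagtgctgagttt
The first held 134 FLI1, 2 RUNX1 and 7 input reads, 6.61 times input for FLI1. It lies 19017 bp before the recorded TSS of Zfp317 and 37696 bp from that of Olfr855. No 5′ UTR is annotated for Zfp317, so its true promoter may lie elsewhere. The stretch is 55.7% G or C and has 2 CAGGAAG words. The second held 44 FLI1, 1 RUNX1 and 4 input reads, lies 3852 bp from the Olfr959 TSS and has none of the ETS or RUNX words searched. The remaining stretch, chr9:19607401-19607700, held 38 FLI1, 2 RUNX1 and 2 input reads 5213 bp from the Olfr859 TSS.

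Olfr genes elsewhere in the genome had nearly the same median counts but lower sums over input. The 984 others had medians of 45 FLI1, 3 RUNX1 and 15 input reads, and their sums stood at 0.929 of input for FLI1 (0.913 to 0.947) and 0.985 for RUNX1 (0.946 to 1.03). The FLI1 interval lay under that of the chromosome 9 family, 1.01 to 1.12, and the RUNX1 intervals overlapped. Over the 11 other chromosomes with at least 20 Olfr genes, which hold 946 of them, the FLI1 ratio ran from 0.745 at 24 genes of chromosome 4 to 1.11 at 286 genes of chromosome 2, and chromosome 9 lay within that range. FLI1 reached 2-fold at 43 of the 984 (4.37%), against 35.8% of all protein-coding genes, and 1 had a 300 bp stretch at 5 times the mean, against 37.0%. It was at or under 0.5 of input at 78 of them (7.93%), against 8.18%. RUNX1 reached 2-fold at 129 of the 984 (13.1%), against 27.9% of all genes, and was at or under 0.5 of input at 276 (28.0%), against 18.8%. Other families that are expressed in restricted tissues lay on both sides of input, and the interval held 1 for Vmn1r, Taar and Krtap genes. The FLI1 ratio was 0.958 at 203 Vmn1r and 1.10 at 125 Vmn2r vomeronasal receptor genes, 1.27 (1.15 to 1.40) at 35 Tas2r bitter taste receptor genes, 0.987 at 15 Taar trace amine receptor genes, 0.959 at 46 Krtap hair keratin-associated genes and 0.819 (0.754 to 0.890) at 41 Defb beta-defensin genes. Median unique 34-base and 50-base positions were 71.4% and 84.2% in Vmn1r windows and 78.75% and 87.85% in Vmn2r windows. Fewer positions there were thus unique at the 34 bases of input reads than at the 50 bases of FLI1 reads. Reads lost to a uniqueness filter were not measured, and the part of such a filter in these ratios was not tested. Only 162 of the Vmn1r and 99 of the Vmn2r windows held a FLI1 read.

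**Figure D5:**
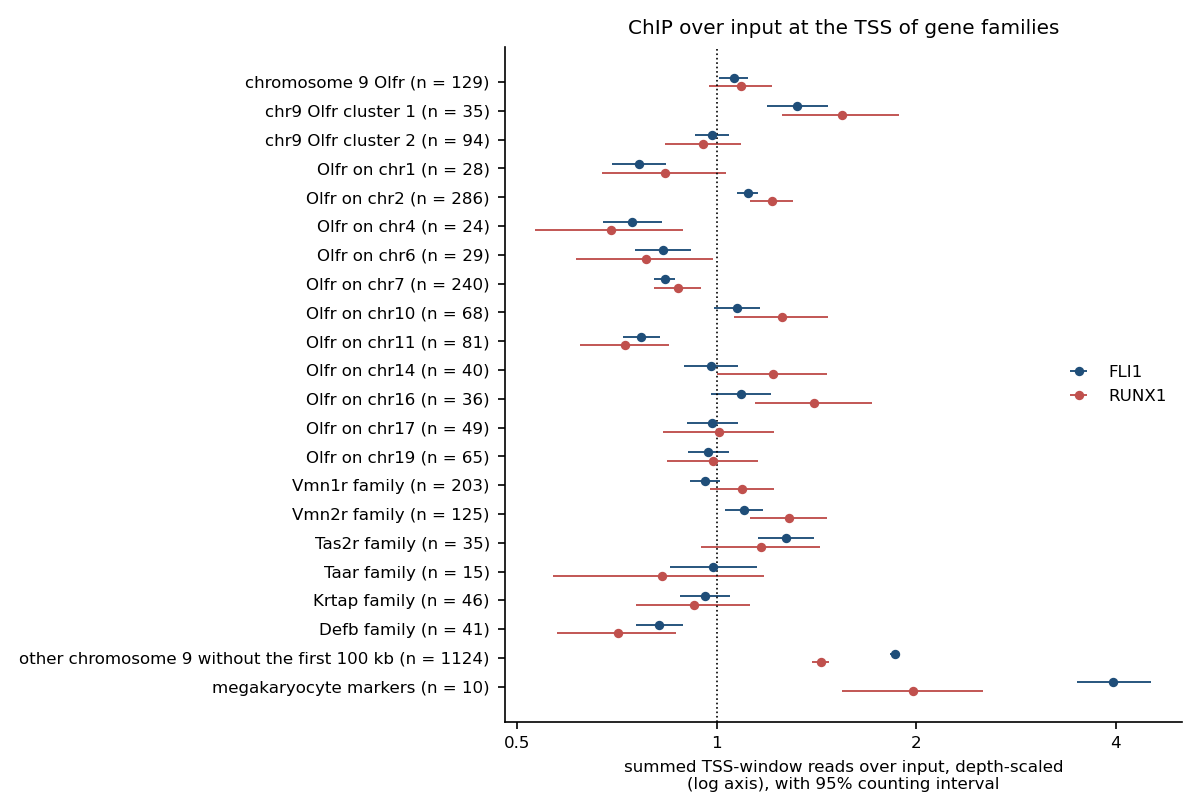
Summed TSS-window reads over input, scaled to depth (x axis, log scale), for FLI1 and RUNX1 in chromosome 9 Olfr genes, Olfr genes of other chromosomes and other families, with bars for 95% binomial counting intervals and a dotted line at 1. The families lie between 0.693 and 1.54, the other chromosome 9 genes at 1.85 and 1.43 and the megakaryocyte markers at 3.97 and 1.98.

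Of 24 listed genes of odorant signalling and receptor choice, which act with the receptors, FLI1 reached 2-fold input at 7 (29.2%), a share near the 35.8% of all protein-coding genes. Those were Atf5, Bptf, Cbx5, Kdm1a, Lbr, Ldb1 and Ric8b. Ldb1, a LIM-domain cofactor, held 214 FLI1 and 8 input reads, and Lbr, the lamin B receptor, 217 and 28. Of the 7 listed olfactory neuron markers, 6 had a window where reads could be kept, and 0 of these reached 2-fold. Omp, the olfactory marker protein gene, held 51 FLI1, 5 RUNX1 and 37 input reads, and Cnga2, a subunit of the cyclic nucleotide-gated channel, 36, 4 and 26. Adcy3, the adenylate cyclase of the same pathway, held 88, 6 and 22. Its fullest 300 bp stretch held 37 FLI1 reads, just enough for the rule of 5 times the genome mean. It was the 1 marker of the 7 to meet that rule, against 37.0% of all protein-coding genes. The remaining marker, the channel subunit gene Cngb1, has a TSS window with 0% unique positions, so no read could be kept there. Of 7 markers of other blood cells 2 reached 2-fold, Epor and Mpo, against the same 35.8%. Epor is also among the genes that the study lists as raised in mature MK. Per the study, cells of other blood lineages were depleted with antibodies, and the part of any that remained was not tested.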

How the data were processed

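Reads of 3 libraries of mature MK were used, 1 per antibody and 1 of input. The authors mapped them to mm9 and deposited the start, end and strand of each uniquely mapped read, per the methods with Bowtie and without redundant reads. The submitters' processing notes also name SICER 1.1 and MACS 1.4, and the version of Bowtie was not given in the sources used here. These deposited positions carry no normalization, so counts are numbers of reads. The 62955089 FLI1 and 3975705 RUNX1 reads deposited held no repeated position. The input held 3.24% repeats, of which 1 read per position and strand was kept. Its lines carry a match code where those of FLI1 and RUNX1 carry the letters of the read. Whether the input was mapped and filtered in the same way is therefore not known. Reads on chromosome M were left out, and no deposited column of per-sample values was set aside (0 columns).

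Read starts were moved 75 bp toward their 3′ end, after the fragment size of 150 bp in the methods, and counted in each window. Protein-coding genes and their TSSs came from GENCODE M1, sequence from mm9. Ratios over input were scaled by reads used. The input of a single gene was set to at least 3 reads, and a RUNX1 call also needed 3 reads. Intervals are exact Poisson for a count and exact (Clopper-Pearson) binomial for a ratio or share. A position is unique where its 34 or 50 bases occur once in the genome. Olfr genes of near-identical sequence may lose reads to that filter.

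With 1 library per antibody no test was made and no p-value is given. The members, gene lists, tests and alternatives were chosen with earlier results of these data known. Named genes are the 3 with the most and fewest FLI1 reads, the 3 highest and lowest FLI1 ratios, the 3 with the most RUNX1 and the most and fewest input reads, every gene with FLI1 at 2-fold, and the first and last gene of each cluster. Besides these, Olfr148 and Olfr866, the 300 bp stretches and their neighbours were named after their values were seen. The counting was tested on simulated reads. Alternatives were other shifts, windows, scalings, subsets and folds. Python 3.11.15, NumPy 2.4.6, SciPy 1.17.1, pandas 2.3.3, numba 0.67.0 and matplotlib 3.10.9 were used.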

Additional observations from a re-analysis of the deposited data

How the results depend on the processing

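In all 28 alternative values of the Olfr level relative to the other chromosome 9 genes the Olfr genes stayed lower, at 0.313 to 0.595 for FLI1, 0.335 to 0.639 for RUNX1 and 0.444 to 0.769 for input, where the ratios of mean levels in the report were 0.406, 0.442 and 0.715. Of 111 recomputed values 57 stayed within counting error, or for counts of genes within 1.5 times. The cause of the other changes was not tested unless the setting itself sets it. With 500 bp on either side, FLI1 reached 2-fold at 17 genes (against 42.0% of all chromosome 9 genes), RUNX1 was 0.933 of input, the relative levels were 0.313, 0.335 and 0.757, and the variance over the mean was 2.44 for FLI1 and 1.16 for RUNX1. With 2 kb, FLI1 was 1.21 and RUNX1 1.28 times input and the relative levels 0.518, 0.517 and 0.624. Repeated input positions kept gave a relative input level of 0.444. Scaling to the median 10 kb bin of chromosome 9 gave FLI1 1.14 times input and gene-body medians of 0.343 for FLI1 and 0.339 for input. The 80 Olfr genes with at least 90% unique positions for both 34-base and 50-base reads gave FLI1 1.12 and RUNX1 1.26 times input, 4 genes with FLI1 at 2-fold (against 38.7% of chromosome 9 genes so chosen), relative levels of 0.433, 0.639 and 0.765 and a FLI1 variance over the mean of 1.95. Per unique position that variance over the mean was 2.31 and the gene-body medians were 0.391, 0.296 and 0.450. Olfr genes with a 5′ UTR alone gave 3 genes with FLI1 and 8 with RUNX1 at 2-fold and relative levels of 0.426, 0.516 and 0.769. Medians over genes gave RUNX1 0.966 of input and relative levels of 0.595 and 0.600 for FLI1 and RUNX1.

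At 1.5-fold 24 genes passed for FLI1 (18.6%, against 45.3% of all chromosome 9 genes) and 35 for RUNX1 (27.1%, against 40.6%). At 3-fold 2 (1.55%, against 19.7%) and 6 (4.65%, against 14.0%) passed, and FLI1 thinned to the RUNX1 depth had 19 genes at 2-fold (against 35.7%). The Olfr share at fold exceeded that of chromosome 9 for RUNX1 with 2 kb on either side, 20.2% against 17.5%, and for RUNX1 in cluster 1 alone, 31.4% against 28.4%. Settings chosen after seeing the data were the following. Without the first 100 kb of chromosome 9 the relative levels were 0.553 for RUNX1 and 0.751 for input. In cluster 1 alone FLI1 was 1.32 and RUNX1 1.54 times input, with 3 and 11 genes at 2-fold, and in cluster 2 alone 0.984 and 0.955, with 4 and 9. In the 1 kb before the TSS the ratios were 1.32 and 1.48. In the 1 kb after it FLI1 fell under input, at 0.869, and RUNX1 was 0.807. Of 273 recomputed ratios of named genes 264 stayed within their intervals, and 1 turned from high to low, the RUNX1 ratio of Olfr872, at 0 with 500 bp on either side, where the 9.85 reported rests on 9 reads. The shift by the estimated fragment length was run for FLI1 (124 bp) and not for RUNX1, whose strands gave no estimate. No paired analysis was possible because each antibody has 1 library.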

Other observations

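Reads in the Olfr windows matched mm9, which was built from another mouse strain than CD1, somewhat more often than reads at other genes of the chromosome for FLI1 and input. FLI1 reads without a mismatch were 81.7% of 6083 in the Olfr windows (80.7 to 82.7) and 79.6% in those of the other 1124 genes. The clusters differed, with 86.4% in cluster 1 (84.7 to 88.0) and 79.9% in cluster 2 (78.7 to 81.1). Input went the same way, with 92.1% (89.2 to 94.4) and 88.0% (86.3 to 89.6). Over all Olfr windows input stood at 88.9% (87.4 to 90.2), against 86.9% in the other genes. In both libraries the cluster 2 interval held the value of the other genes, and the cluster 1 interval lay above it. RUNX1 reads matched less often everywhere, at 58.4% in Olfr windows and 58.7% in the others, with 65.1% in cluster 1 and 55.2% in cluster 2, where the intervals overlapped. The part of strain differences in these shares was not tested.

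Inside and beside the clusters the genes that are not receptors ranged widely in FLI1. Vwa5a, within cluster 2, held 90 FLI1, 0 RUNX1 and 15 input reads at its TSS, more FLI1 than any Olfr gene of the chromosome. Zfp317, within cluster 1, held 67, 3 and 22, and Tmem225, within cluster 2, 48, 4 and 17. No 5′ UTR is annotated for Zfp317, so its true promoter may lie outside that window. On the far side of cluster 2 from Zfp202, Tbrg1 held 261 FLI1, 7 RUNX1 and 22 input reads and Siae 137, 11 and 18, while Panx3, closest to Olfr151 of the genes listed there, held 58, 0 and 19.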
